A study of Drosophila melanogaster with 16 samples.

Results

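Acetylation of histone H3 at lysine 27 (H3K27ac) was compared between young and old male fly heads, at day 10 and day 50 of adult life. The members were the peaks of the 2 deposited H3K27ac lists that lie on 2L, 2R, 3L, 3R, 4 and X, 26692 at day 10 and 25432 at day 50, together 52124 of the 137860 peaks that the series holds for 2 marks. Each list had been made by the authors from 2 chromatin immunoprecipitation replicates (ChIP, the recovery of DNA bound to an antibody's target) pooled before peaks were called, and 2 input samples were labelled for each age. All 8 samples came from wild-type *Drosophila melanogaster* of strain w1118, a white-eyed laboratory strain, with 50 mg of heads per replicate, so that each replicate was a pool of many animals and of every cell type of the head. No transgene or treatment separated the groups, and age was the only labelled difference.

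H3K27ac is placed by the acetyltransferase CBP, which the fly gene nej encodes, and the same residue carries the repressive Polycomb methylation when it is not acetylated. The acetyl mark sits on nucleosomes next to active promoters and active enhancers, and in long genes many enhancers lie within introns. In the fly head most RNA comes from neurons, photoreceptors, glia and the fat body around the brain.

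A day 10 peak that overlapped no day 50 peak by at least 1 base is called lost, a day 50 peak that overlapped no day 10 peak is called gained, and a peak with an overlap is called kept. Lost and gained are statements about 2 lists. Since each age has a single pooled list, replicate error could not be measured and age was not tested, read depth was unknown, and a peak just under the caller's threshold at 1 age is counted as absent there. Intervals are exact 95% intervals for counting error only. In a mixture of cells, fewer cells that carry the mark and less of the mark per cell cannot be told apart. The gene table used gives the ends of each gene but not its strand or exons, so that a start was not told from the other end, nor an exon from an intron or a UTR.

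Most peaks were found at both ages, and the weak ones were the ones that came and went. Of the day 10 peaks 6415 were lost (24.0%, interval 23.5 to 24.6), and of the day 50 peaks 5096 were gained (20.0%, interval 19.5 to 20.5). The remainder included 17570 pairs in which 1 day 10 peak and 1 day 50 peak overlapped each other and nothing else. Lost peaks had a median fold over background, as the authors' caller gives it, of 2.15 against 2.64 for kept peaks of the same list, and a median width of 192 against 315 bases. Gained peaks had a median fold of 2.21 against 2.76 for kept ones and a median width of 191 against 320 bases.

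The dependence on strength was steep at both ages. Among the weakest 10% of day 10 peaks by fold, 49.3% were lost, and among the strongest 10%, with folds of 3.57 to 7.09, 5 of 2669 were lost (0.187%). The weakest 10% of day 50 peaks held 39.9% gained peaks, and the strongest 10%, with folds of 3.89 to 7.55, held 5 of 2543 (0.197%). No strong day 10 site near a gene end was lost: of 1833 gene-end peaks with a fold above 3.5, the count was 0, which bounds the share at 0.201% by the exact interval.

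**Figure D1:**
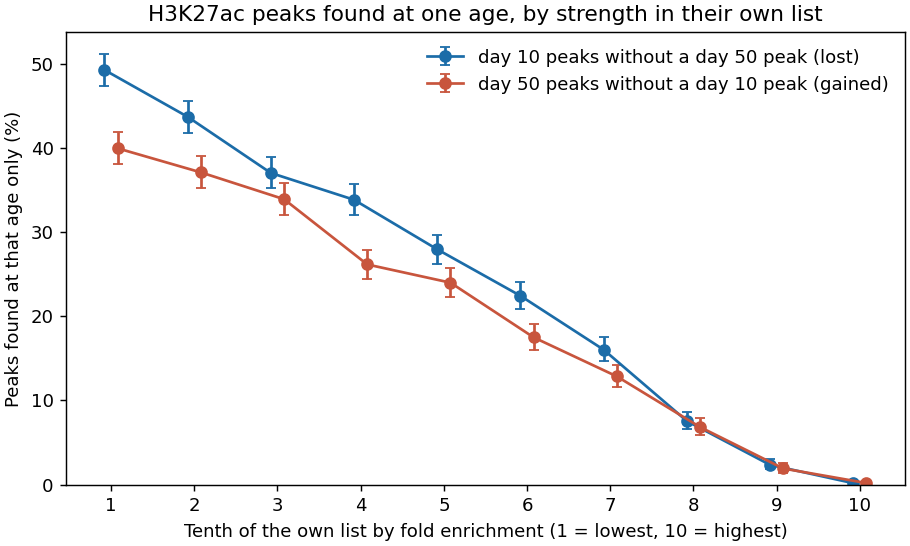
Percent of H3K27ac peaks found at 1 age only (vertical axis) against the tenth of their own list by fold enrichment (horizontal axis), for lost day 10 peaks in blue and gained day 50 peaks in red; bars are exact 95% intervals for counting error. Both curves descend, from 49.3% and 39.9% in the weakest 10% of peaks to 0.187% and 0.197% in the strongest 10%.

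Many peaks called lost or gained had a neighbour in the other list. The median distance from a lost peak to the nearest day 50 peak was 834 bases, and 2352 of the 6415 lay within 500 bases of one. For gained peaks the median distance to a day 10 peak was 614 bases, and 2226 of 5096 lay within 500 bases. Peaks more than 5000 bases from any peak of the other age numbered 1112 of the lost (17.3%) and 438 of the gained (8.59%).

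Position separated the 2 directions. H3K27ac covered more bases around gene ends at day 50 and fewer bases deep inside genes and between genes. Within 500 bases of the ends of protein-coding genes, 11.4% of bases lay under peaks at day 10 and 13.1% at day 50, which is 2.30 and 2.65 Mb. In the rest of the gene bodies the share was 8.01% and 7.44% (6.06 and 5.62 Mb), and outside genes 2.25% and 1.82% (0.841 and 0.679 Mb). The declines were smaller among stronger peaks: among peaks with a -log10 q of at least 5, day 50 minus day 10 was -0.0722 Mb inside genes and -0.0612 Mb outside them, in place of -0.435 and -0.162 Mb, and the total over all positions was 0.249 in place of -0.248 Mb. Near gene ends the difference was 0.383 Mb among those peaks and 0.349 Mb over all. Gene-end windows thus held 25.0% of all covered bases at day 10 and 29.6% at day 50.

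By distance from the nearest gene end, the day 50 list exceeded the day 10 list up to 2500 bases into the gene and lay below it in every 250-base bin from there to 10000 bases. The largest excess was 2.90 percentage points, 250 to 500 bases inside the end, where 17.6% of bases were covered at day 10 and 20.5% at day 50. Between 9750 and 10000 bases inside, the shares were 8.70% and 6.85%. Outside genes, followed to 4000 bases, the day 50 list was higher in the first 500 bases and lower in each bin beyond.

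**Figure D2:**
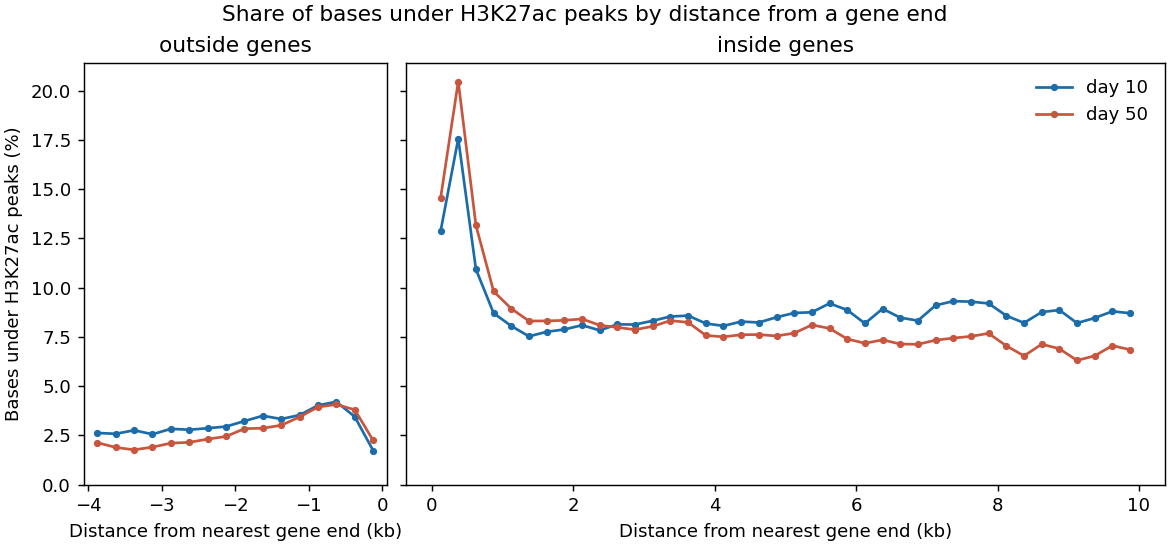
Percent of bases under H3K27ac peaks (vertical axis) in bins of 250 bases by distance from the nearest end of a protein-coding gene in kb (horizontal axis; outside genes on the left, inside genes on the right), for day 10 in blue and day 50 in red. Each point is 1 bin of 1 pooled list; the day 50 line lies above the day 10 line near the ends (20.5% against 17.6% at its highest point) and below it further into genes (6.85% against 8.70% in the last bin).

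In counts of whole peaks, gains outnumbered losses at gene ends. Losses outnumbered gains outside genes and, over genes of all lengths together, inside them. Of 7876 day 10 peaks that reached within 500 bases of a gene end, 500 were lost (6.35%), against 4953 of 16339 inside genes (30.3%) and 962 of 2477 outside genes (38.8%). For day 50 peaks the gained shares were 15.0% at gene ends (1287 of 8597), 22.7% inside genes (3369 of 14846) and 22.1% outside genes (440 of 1989). Gene-end peaks were also stronger, with median folds of 2.88 at day 10 and 3.06 at day 50 against 2.37 and 2.44 inside genes. The difference in loss remained among peaks of like strength: with folds of 2 to 2.5, 13.9% of gene-end peaks, 36.8% of peaks inside genes and 45.4% of those outside genes were lost. In the same fold range at day 50, 34.9% of gene-end peaks, 29.8% inside genes and 26.7% outside genes were gained. That order did not extend to stronger peaks: with folds of 2.5 to 3 the gained shares were 17.3%, 17.0% and 19.4%, and with folds of 3 to 3.5 they were 5.87%, 7.18% and 7.66%, lowest at gene ends as for the losses.

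The length of the gene that held a peak ordered losses and gains in opposite ways. Inside genes of at most 5 kb, 157 of 1028 day 10 peaks were lost (15.3%, interval 13.1 to 17.6), and inside genes over 100 kb 759 of 1548 were lost (49.0%, interval 46.5 to 51.6). Gains ran from 40.6% of day 50 peaks inside genes of at most 5 kb (539 of 1328) to 18.3% in genes of 20 to 50 kb, 18.6% in genes of 50 to 100 kb and 21.6% in longer ones. Inside genes of up to 20 kb gains thus outnumbered losses. Gains and losses numbered 539 and 157 up to 5 kb, and 536 and 223 from 5 to 10 kb. From 10 to 20 kb they numbered 662 and 489. In each longer class losses outnumbered gains, with 1757 losses and 874 gains from 20 to 50 kb. Among peaks with folds of 2 to 2.5 the lost share was 17.3% in the shortest and 54.1% in the longest class, and the gained share was 50.9% and 26.0%. Among day 10 peaks that themselves had a -log10 q of at least 5, set against every day 50 peak, 958 of 3149 inside genes over 50 kb were lost (30.4%) and 47 of 643 inside genes of at most 5 kb (7.31%). Among day 50 peaks chosen in the same way, 13.7% and 26.7% were gained.

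**Figure D3:**
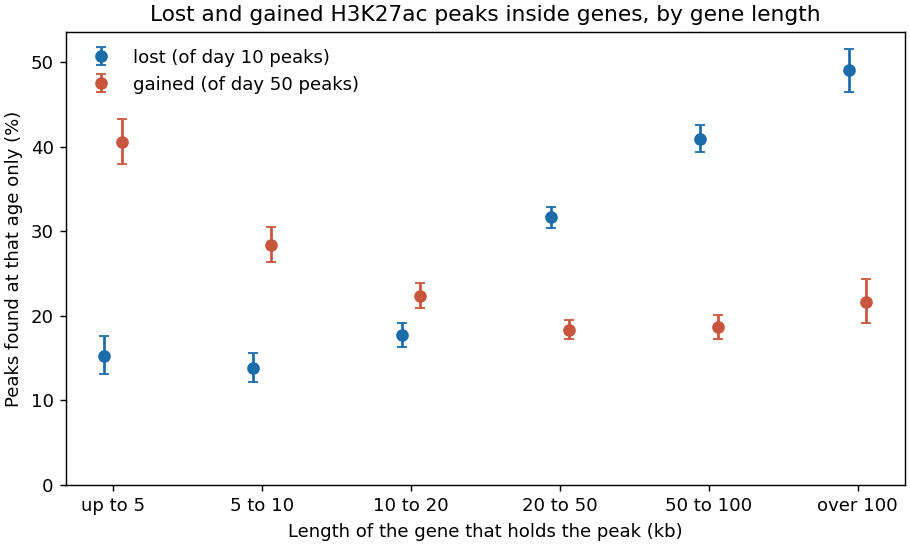
Percent of H3K27ac peaks inside genes, more than 500 bases from any gene end, that were found at 1 age only (vertical axis) by the length of the gene in kb (horizontal axis), for lost day 10 peaks in blue and gained day 50 peaks in red; bars are exact 95% intervals for counting error. Lost shares stand at 15.3% in the shortest and 49.0% in the longest genes, and gained shares at 40.6% and 21.6%.

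Kept peaks also differed in outline by position. Over the 17570 pairs, 1600 (9.11%) were at least 1.5 times wider at day 50 and 1516 (8.63%) at least 1.5 times wider at day 10. At gene ends the median width was 335 bases at day 10 and 385 at day 50, and 738 of 6585 pairs were wider at day 50 by that measure while 219 were narrower. Inside genes the median was 290 and 272 bases, with 777 of 9667 pairs wider at day 50 and 1140 narrower. Outside genes it was 294 and 269 bases, with 85 of 1318 wider and 157 narrower. Among the 4379 pairs with folds of at least 3 at both ages, the 4 that widened most were all at gene ends. They lay at CG13392 (204 and 763 bases at days 10 and 50), wdn (155 and 530), Rcd5, whose product belongs to the NSL acetyltransferase complex (231 and 778), and CG11562 (157 and 496). Their summits moved by only 9 to 18 bases. The 4 that narrowed most were inside genes, at CG9171 (426 and 157 bases), psq, a BTB-domain regulator (706 and 270), CG32647 (466 and 180) and the cell polarity gene sdt (368 and 150).

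Splitting and merging were about equally common. Of the day 10 peaks 968 overlapped 2 or more day 50 peaks (3.63%), and of the day 50 peaks 917 overlapped 2 or more day 10 peaks (3.61%). Most had 2 parts, 917 of the split and 872 of the merged peaks, and they were wide, with medians of 705 and 657 bases. The widest of the 5 peaks that split into 4 lay near the alkaline phosphatase gene Alp13 (3R:10079497-10084181, 4685 bases), where only 320 bases had no day 50 peak over them. At the synaptic recognition gene dpr12, a weak day 10 peak of 3391 bases (2R:5846909-5850299, fold 1.92) also became 4 pieces, but these were 155 to 531 bases wide and left 2002 bases uncovered. The other named splits were at drongo, with 430 bases uncovered, and at the chromatin remodeller gene kis, with 426. In the opposite direction, 4 day 10 peaks lay under 1 day 50 peak at the synaptic vesicle regulator gene cpx (3R:4280266-4283548, fold 4.88 at day 50 and 2.50 to 4.30 in the parts), at sgg, the fly GSK-3 kinase gene, and at the ferritin gene Fer1HCH. A day 50 peak of 6738 bases at CG45428 joined 3 day 10 peaks.

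Summits mostly stayed in place. The median distance between the summits of a pair was 16 bases, with no lean to either side (median 0), and 1536 pairs (8.74%) had summits further apart than the width of the narrowest peak, about the length of DNA on 1 nucleosome. The share was 8.38% at gene ends, 8.93% inside genes and 9.18% outside them. It followed width: 3.63% of pairs with day 10 widths under 200 bases and 22.8% of those of at least 600 bases. The largest shifts among pairs of fold 3 or more were within peaks whose borders hardly moved. At Efa6, an Arf exchange factor gene, the summit of a peak of 1684 and 1650 bases lay 1185 bases apart at the 2 ages, with folds of 4.40 and 3.33. At crp, a basic helix-loop-helix factor gene, the distance was 1068 bases, at ps, the fly Nova splicing factor gene, 871 bases, and at the peroxisomal transporter gene Abcd3 848 bases.

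Losses were clustered along the chromosome. After a lost peak, the next day 10 peak was lost as well in 46.2% of cases, against 24.0% of all day 10 peaks, and after a gained peak the next was gained in 30.4%, against 20.0%. The 24.0% is over all positions. The lost share was 30.3% inside genes, 40.9% inside genes of 50 to 100 kb and 49.0% inside longer ones. The part of position and gene length in the clustering was not tested, and runs were counted over all peaks only. Runs of 3 or more neighbouring lost peaks numbered 665 and held 2989 peaks, 46.6% of all that were lost. Gained runs numbered 327 with 1146 peaks (22.5%). Runs of at least 10 peaks numbered 25 among the losses and 0 among the gains, whose longest had 7.

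The longest run of losses covered 113 kb at SKIP, which encodes a partner of the Shal potassium channel, with 21 neighbouring day 10 peaks with folds up to 2.74 (3R:22140299-22253766). The second, at Pvf3, a growth factor gene of the PDGF and VEGF family, had 17 peaks over 31.6 kb (2L:7117378-7148958). At sm, which encodes an RNA-binding protein related to hnRNP L, 16 peaks over 48.3 kb were lost (2R:19541047-19589346), and at the glucose transporter gene Glut1 15 peaks over 31.8 kb with folds up to 3.06 (3L:915676-947455). A run at the octopamine receptor gene Octalpha2R had 15 peaks too, over 34.6 kb, and fell outside the 4 named by rule. Within the 4 spans the day 50 list had 2, 1, 1 and 1 peaks. The 4 longest gained runs had 7 peaks each. They lay between CG3036 and hoe1, around the triglyceride lipase gene bmm with its neighbours mop and Mgat4a (3L:14763798-14779593), at east, which encodes a nuclear matrix protein, and at the nuclear receptor gene svp (3R:12286981-12301849).

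Of 9171 genes with a peak in the body or the 1000 bases on either side, 3004 had more gained than lost peaks (32.8%) and 1364 more lost than gained (14.9%), and 4473 had neither kind. A peak in the regions of several genes counted for each of them. With gene bodies alone, 2114 genes had more gained and 1113 more lost peaks. Genes with more gains outnumbered genes with more losses, and the latter were longer. The median length was 3.22 kb for genes with more gains and 10.5 kb for genes with more losses, against 2.73 kb for all 9171. A net loss of 5 or more peaks was found at 253 genes and a net gain of 5 or more at 43, and the extremes were a net loss of 48 and a net gain of 11.

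Rbp6, a gene of the Musashi family of RNA-binding proteins, had the largest net loss over all peaks. It had 125 peaks at day 10 and 83 at day 50, with 59 lost and 11 gained. None of the 59 was within 500 bases of a gene end, and the strongest had a fold of 2.96. At Pvf3 6 of 38 day 10 peaks were kept, and its strongest day 50 peak (fold 2.66) was a gained one. With a -log10 q of at least 5 in both lists its net loss was 8, against 30 over all peaks, and that of Rbp6 27 against 48. Sema1a, a transmembrane semaphorin of axon guidance, had 64 and 38 peaks at days 10 and 50, with 39 lost and 11 gained, and its net loss of 28 was 14 with the stricter q.

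Glut1 had 44 and 17 peaks, with 31 lost, among them its strongest of day 10 (fold 3.06), and 4 gained, and its net loss of 27 was 16 with the stricter q. CG34370 had 32 and 8 peaks, with 25 lost and 1 gained. Its strongest peak had a fold of 3.51 at day 10 and 3.77 at day 50. CG43867 (84 and 60 peaks), sm (45 and 23) and CG42238 (49 and 28) completed the 8 genes taken by rule. In each of these 3 the strongest peak of the region had a fold above 3.7 at both ages, and the strongest lost peak did not exceed 3.29. Of the lost peaks of these 8 genes, CG34370 and sm had 1 each and CG43867 had 3 within 500 bases of a gene end, and the other 5 genes had 0. With the stricter q in both lists the net losses of CG34370, sm and CG42238 were 15, 8 and 11 in place of 24, 23 and 22. That of CG43867 was 27 in place of 23, equal to that of Rbp6 in the same setting. The eighth place was tied, since kek5 and Rbfox1 also had a net loss of 22.

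The net gains were smaller. At svp, the COUP-TF nuclear receptor gene of photoreceptor identity, all 7 day 10 peaks were kept and 11 of 19 day 50 peaks were gained, with folds of at most 2.31. At hth, a homeodomain gene of brain and eye patterning, 11 of 28 day 10 peaks were lost and 21 of 37 day 50 peaks gained, so that its net gain of 10 came with exchange in both directions. At cnc, the fly Nrf2 gene of the antioxidant response, 10 of 18 day 50 peaks were gained, the strongest with a fold of 3.30, and 2 of 11 day 10 peaks were lost.

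At e(y)3, which encodes a coactivator of chromatin remodelling, 6 peaks at day 10 were all kept and 8 of 14 were gained. Dlic, a dynein light intermediate chain gene, had 7 peaks at day 10, all kept, and 7 gained. SNF4Agamma, which encodes the gamma subunit of AMP-activated kinase, had 10 gained of 46 and 3 lost of 38. Egfr, the EGF receptor gene, had 8 gained of 12 and 1 lost of 5. At Svil, a supervillin gene, 14 of 40 were gained, 4 of them within 500 bases of a gene end, and 8 of 33 were lost. Of the 8 genes, svp, e(y)3 and Dlic had no lost peak. Several of these net gains were smaller among stronger peaks: with a -log10 q of at least 5 in both lists the net gain was 1 in place of 7 at Egfr, 2 in place of 7 at Dlic, 3 in place of 8 at e(y)3 and 7 in place of 11 at svp. At hth it was 13 in place of 10. The eighth place was again tied, with bmm, baz, Gp150, CG12236, InR, htk, east, tyf and sug also at a net gain of 6.

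**Figure D4:**
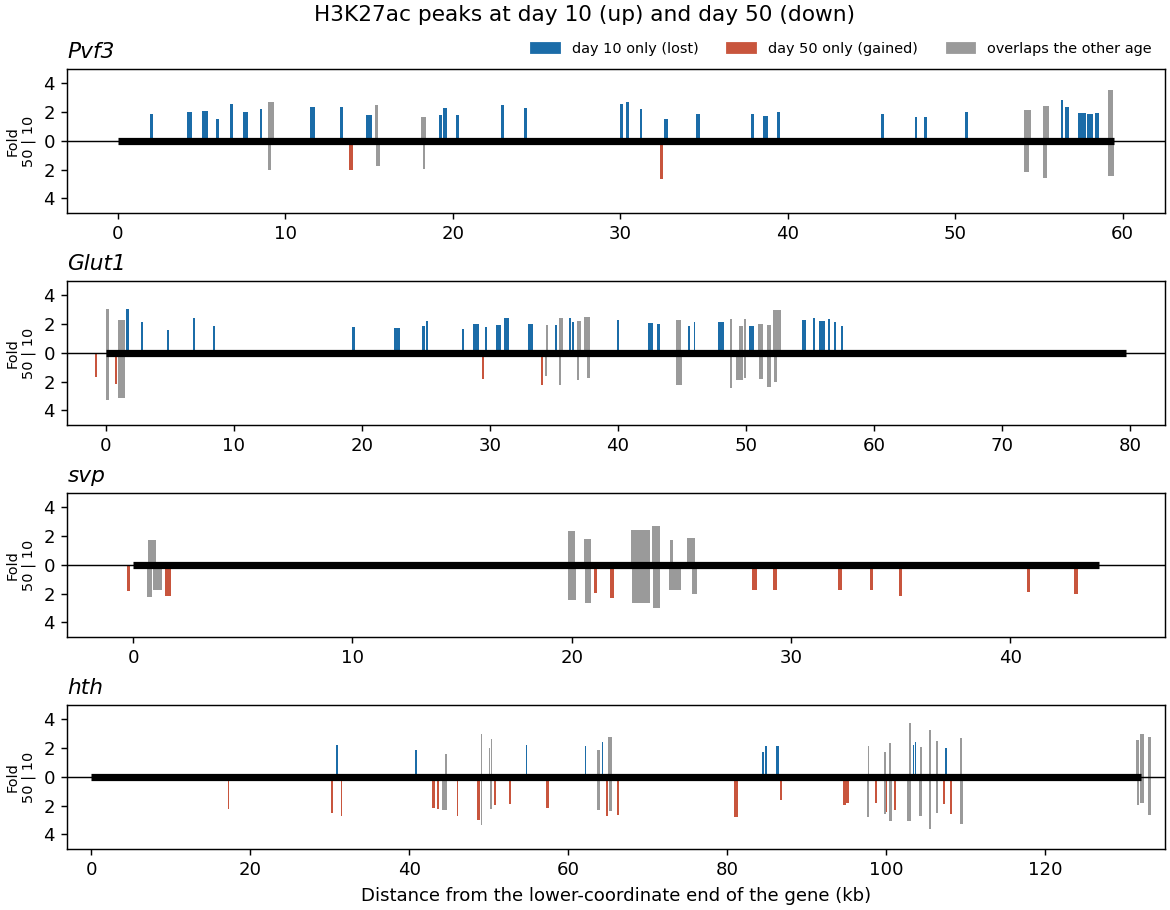
H3K27ac peaks across 2 genes with large net losses (Pvf3, Glut1) and the 2 with the largest net gains (svp, hth). The horizontal axis is distance in kb from the lower-coordinate end of the gene (black bar), day 10 peaks point up and day 50 peaks point down, and height is the fold over background within the list of that age; blue marks lost, red gained and grey kept peaks. At Pvf3 32 of 38 day 10 peaks are blue and at svp 11 of 19 day 50 peaks are red, while hth has 11 blue and 21 red ones.

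The strongest lost and gained peaks lay at varied distances from a peak of the other age. Over the whole lists, 36.7% of lost and 43.7% of gained peaks lay within 500 bases of one. The lost peak of highest fold lay inside ASPP, a gene of a p53-binding regulator of epithelia (2R:21246979-21247157, fold 3.85), and a day 50 peak of fold 2.76 began 110 bases away. The next were at the synaptic scaffold gene Liprin-gamma (fold 3.74, 250 bases from a day 50 peak), tadr (3.71, 8 bases), the translation repressor gene eIF4EHP (3.63, 335 bases), psq (3.57, 217 bases) and the lipid acyltransferase gene Agpat1 (3.57, 1292 bases). All 6 lay inside genes and on an H3K4me1 peak of day 10. H3K4me1 is the other mark of the series, found at enhancers. At gene ends the strongest losses had folds of 3.19 to 3.46, at CG4911, CG34354, mip120 of the Myb-associated repressor complex, Mid1, the homeobox gene ct and CG34132. In that order they lay 456, 467, 1778, 133, 1012 and 103 bases from a day 50 peak.

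The gained peak of highest fold lay inside CG46456 (3L:5350341-5350575, fold 4.05), 3981 bases from the nearest day 10 peak. It was followed by Tsp42Eg, a tetraspanin gene (fold 4.04, 574 bases), RfC4, a replication factor gene (4.01, 1186 bases), PGAP1 (4.01, 88 bases), the beta-heavy spectrin gene kst (3.97, 454 bases) and the RNA-processing gene mdlc (3.89, 369 bases). RfC4, PGAP1 and mdlc were gained at a gene end. The gene ends with the next highest folds were those of the complex I subunit gene ND-23 (3.89), beta-Man (3.84) and Ankrd49 (3.82), at 68, 150 and 516 bases from a day 10 peak.

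Gene lists chosen by function were described by the peaks in their regions, beside the 22.6% lost and 20.0% gained over the regions of all protein-coding genes, where the median gene with a peak had a net change of 0. Of all 9171 genes with a peak, 32.8% had more gained and 14.9% more lost peaks. Lists of neuronal surface proteins, receptors, channels and RNA-binding proteins had lost shares of 34.8% to 52.4% and gained shares of 13.3% to 20.8%. For surface recognition, the immunoglobulin and leucine-rich proteins by which neurons find partners, 258 of 492 day 10 peaks were lost (52.4%) and 54 of 291 day 50 peaks gained (18.6%). Of its 52 genes 43 had a peak, and 30 of these had more lost and 5 more gained peaks, with a median net change of -2. The largest net losses were at dpr12 (20 lost and 1 gained), side-III (20 and 2), dpr6 (17 and 1) and caps (16 and 2), and in the other direction stood DIP-epsilon with 0 lost and 4 gained.

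Axon guidance genes had 153 of 307 peaks lost (49.8%) and a median net change of -4. Of the 25 genes 21 had a peak, and 16 of these lost more and 5 gained more. Beside Sema1a the losses were led by the teneurin gene Ten-a (17 lost and 0 gained), the syndecan gene Sdc (17 and 4) and Ten-m (18 and 7). Neurotransmitter receptor genes had 124 of 285 lost (43.5%). Of the 35 genes 30 had a peak, and 23 of these lost more than they gained, while 1, the serotonin receptor gene 5-HT1B, gained more. At the octopamine receptor genes Octbeta2R and Octbeta3R 15 of 37 and 9 of 10 day 10 peaks were lost, and at the acetylcholine receptor gene nAChRalpha1 12 of 30.

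Neuronal RNA-binding genes had 211 of 574 lost (36.8%) and 58 of 437 gained (13.3%), with Rbfox1 (23 lost, 1 gained), bru1 (22 and 1) and shep (25 and 10) behind Rbp6. In this list the neuronal elav had 1 lost and 4 gained. Ion channel genes had 89 of 256 lost (34.8%), led by the calcium channel gene Ca-alpha1T (19 lost and 1 gained) and the Shaker gene Sh (19 and 5), while the sodium channel family gene NaCP60E had 0 lost and 4 gained. Synaptic vesicle genes, whose products act in the release machinery, had 36 of 167 lost (21.6%), near the share over all genes. Their gained share was 14.2% (22 of 155), and its interval, 9.11 to 20.7, included the 20.0% of all genes. Of the 27 synaptic vesicle genes with a peak 11 had more lost and 3 more gained peaks, while over all genes 1364 had more lost and 3004 more gained.

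Gene length was shared by these lists. Their median lengths were 87.9 kb for RNA-binding, 39.0 kb for axon guidance, 37.1 kb for surface recognition, 36.1 kb for ion channel and 24.2 kb for receptor genes, against 2.16 kb over all genes and 17.9 kb for synaptic vesicle genes. In genes over 50 kb alone, 41.1% of day 10 peaks were lost over all genes. In that class the share was 55.4% for surface recognition (298 peaks), 52.1% for receptors (94), 50.9% for axon guidance (218), 46.1% for ion channels (152) and 39.2% for RNA-binding genes (502). The gained share in the same class was 19.3% over all genes and 27.4% for receptors (62 day 50 peaks). It was 17.1% for surface recognition, 19.6% for axon guidance, 17.2% for ion channels and 13.2% for RNA-binding genes. Transcription factor genes of neurons and eye, with a median length of 28.5 kb, had 24.3% lost and 24.7% gained, and in their members over 50 kb 27.1% were lost. There Eip93F had 12 lost and 3 gained and chinmo 8 and 2, against svp and hth described above and so, with 0 lost and 3 gained.

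Lists of metabolism, stress and housekeeping had few losses, and their median gene lengths were below those of the neuronal lists above. Median lengths in kb were 6.85 for insulin and TOR, 3.46 for autophagy, 2.36 for heat shock and 1.74 for detoxification genes. Over the whole day 10 list, 6.35% of gene-end peaks and 15.3% of peaks inside genes of at most 5 kb were lost. The part of length and position in the list shares was not tested. Insulin and TOR genes had 8 of 122 peaks lost (6.56%) and 40 of 156 gained (25.6%). Of the 27 genes 21 had a peak, and 14 of these gained more than they lost while 0 lost more. Over all genes with a peak, 32.8% gained more and 14.9% lost more. The insulin receptor gene InR had 7 gained and 1 lost, the kinase gene Pdk1 5 and 0, and foxo and Myc 3 and 0 each. Oxidative stress and detoxification genes had 8 of 96 lost (8.33%) and 33 of 116 gained (28.4%). Beside cnc stood Sesn, a stress-induced regulator of TOR (6 gained and 1 lost), and the glutathione transferase genes GstD2 and GstE9 (2 and 0 each). Autophagy genes had 5 of 61 lost (8.20%) and 17 of 72 gained (23.6%), with Atg17 at 4 gained and 1 lost. Heat shock and chaperone genes had 3 of 53 lost (5.66%) and 11 of 62 gained (17.7%), with Hsp22 at 3 gained and 0 lost. The interval of the gained share included the 20.0% of all genes for insulin and TOR (19.0 to 33.2), autophagy (14.4 to 35.1) and heat shock genes (9.20 to 29.5). For detoxification genes it was 20.5 to 37.6.

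Proteasome genes had 2 of 80 lost (2.50%) and 13 of 89 gained (14.6%), oxidative phosphorylation genes 7 of 177 (3.95%) and 33 of 196 (16.8%), and cytosolic ribosomal protein genes 8 of 194 (4.12%) and 21 of 203 (10.3%). These genes are short, with median lengths of 1.11 to 1.38 kb. For ribosomal protein genes the interval of the gained share (6.52 to 15.4) lay below the 20.0% of all genes. For proteasome (8.01 to 23.7) and oxidative phosphorylation genes (11.9 to 22.8) it included 20.0%. Circadian clock genes had 13.2% lost and 13.6% gained, with the kinase gene nmo (14 lost and 4 gained) and the neuropeptide receptor gene Pdfr (5 and 0) against the repressor gene vri (3 gained and 0 lost).

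Innate immunity genes stood on both sides. The receptor gene Tl had 17 of 43 day 10 peaks lost and 5 of 31 gained, and dl and Dif, the transcription factors of its pathway, had 2 lost and 0 gained each. PGRP-LC, the membrane receptor of the Imd pathway, had 1 peak at day 10, which was kept, and 5 gained of 6. Myd88 had 4 gained, and imd and cact 3 each, all with 0 lost. Over the list 26 of 118 were lost (22.0%) and 38 of 127 gained (29.9%). Of the 30 genes with a peak 14 gained more and 6 lost more, beside 32.8% and 14.9% of all genes with a peak.

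**Figure D5:**
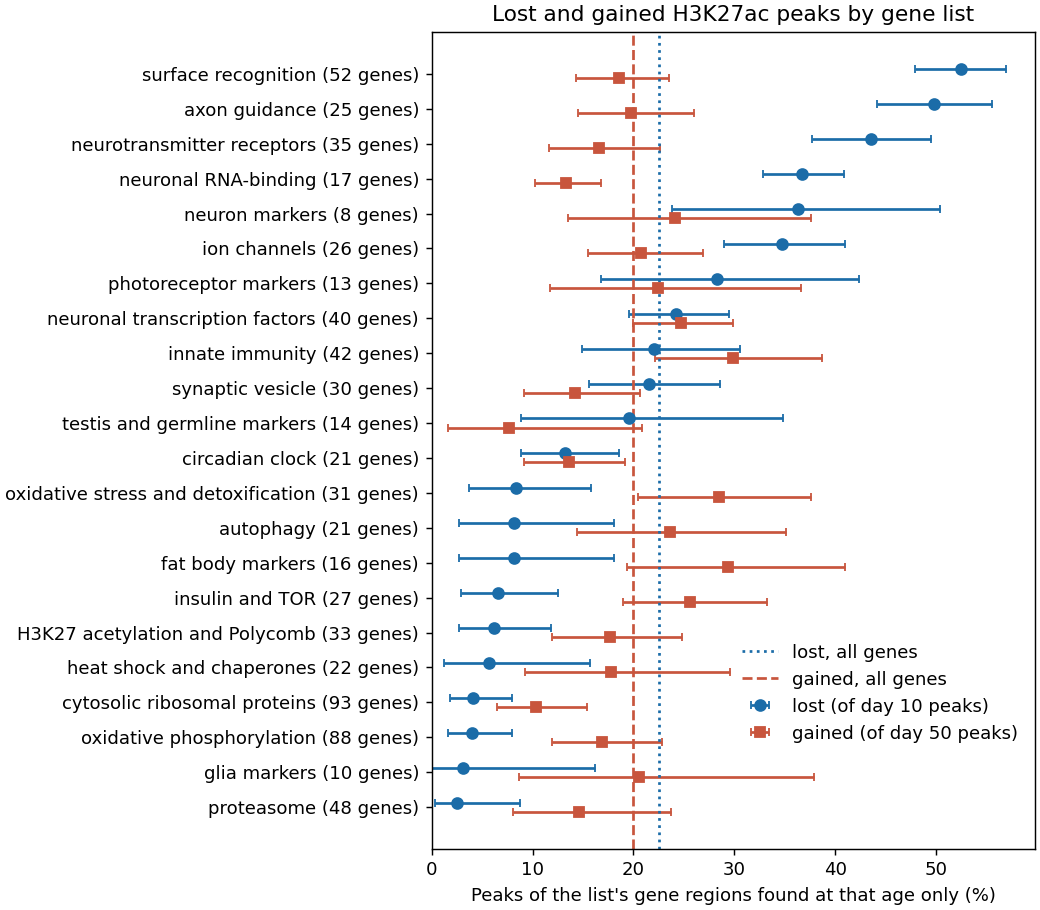
Percent of the H3K27ac peaks in each list's gene regions that were found at 1 age only (horizontal axis), for lists with at least 20 day 10 peaks, ordered by the lost share; blue circles are lost day 10 peaks, red squares gained day 50 peaks, bars exact 95% intervals for counting error, and the vertical lines the shares over all genes (22.6% lost, 20.0% gained). Surface recognition stands at the top with 52.4% lost and proteasome genes at the bottom with 2.50%.

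Genes of the enzymes and readers of this residue had few losses, and a gained share near that of all genes. In the list of H3K27 acetylation and Polycomb, 8 of 129 day 10 peaks were lost (6.20%), and 26 day 50 peaks, 17.7% of those in the list, were gained. The interval of the gained share, 11.9 to 24.8, included the 20.0% of all genes. The lost share was close to the 6.35% of all gene-end peaks, and the median gene length was 5.22 kb. Of its 32 genes with a peak, 14 had more gained and 3 more lost peaks, and the median net change was 0. All 4 day 10 peaks of nej were kept, with a highest fold of 4.01 at day 10 and 4.47 at day 50, and 3 of 7 day 50 peaks were gained. The acetyl-lysine reader gene fs(1)h had 6 gained and 2 lost and the deacetylase gene HDAC4 4 and 2. Utx, the gene of the H3K27 demethylase, had no peak at either age.

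Markers of head cell types were checked in the same lists. The shares over all genes were 22.6% lost and 20.0% gained. All 6 neuron markers had peaks at both ages, 43 and 42 in number over 21.9 and 19.8 kb, with 16 lost and 9 gained. Among them elav went the other way, with 1 lost and 4 gained. In the wider neuron list of 8 genes 20 of 55 peaks were lost (36.4%) and 13 of 54 gained (24.1%). Photoreceptor markers had peaks at 3 and 4 of 6 genes (9.84 and 7.84 kb, 9 lost and 3 gained), and 8 of the 9 losses were at the phospholipase gene norpA, with none at chp and Arr2 and none at day 10 at the rhodopsin gene ninaE, which had 1 gained peak. In the wider photoreceptor list of 13 genes 15 of 53 peaks were lost (28.3%) and 11 of 49 gained (22.4%), with 3 genes on each side, among them the rhodopsin genes Rh4 (0 lost, 2 gained) and Rh5 (0 lost, 1 gained). Glia markers had peaks at 5 of 6 genes at both ages (9.40 and 11.3 kb, 1 lost and 5 gained), with none at repo. The wider glia list of 10 genes had 1 of 32 lost (3.13%) and 7 of 34 gained (20.6%). Fat body markers had peaks at 5 of 6 (7.15 and 9.36 kb, 1 lost and 9 gained, 7 of them at bmm), with none at the female yolk gene Yp1. The wider fat body list of 16 genes had 5 of 61 lost (8.20%) and 22 of 75 gained (29.3%). Muscle markers had 0 peaks at day 10 and 2, both at Mhc, at day 50, with none at Act88F, up, wupA and Tm2. Hemocyte markers had 3 and 5 peaks, with none at Hml and eater. Testis and germline markers had 36 and 34 peaks over 15.2 and 12.3 kb, with 8 lost and 3 gained. Of these peaks 25 and 23 were at bol, with 6 lost and 1 gained, and none at bam and aly. The wider testis and germline list of 14 genes had 8 of 41 lost (19.5%) and 3 of 39 gained (7.69%). Median gene lengths in the wider lists were 29.7 kb for neuron, 3.04 kb for photoreceptor and 6.60 kb for glia markers. They were 3.62 kb for fat body and 2.76 kb for testis and germline markers. The part of the cell mixture in the gene-level differences was not tested, nor that of gene length and position in the marker shares.

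H3K4me1 lay under fewer of the lost peaks. Of the lost peaks 56.3% overlapped a day 10 H3K4me1 peak, against 72.0% of kept day 10 peaks, and 46.8% against 67.8% overlapped one of day 50. For gained peaks the shares were 65.4% at day 10 and 64.6% at day 50, against 73.7% and 69.3% for kept ones. Inside genes, 19.3% of day 10 H3K27ac peaks with H3K4me1 at both ages were lost, 46.1% of those with H3K4me1 at day 10 only, 37.2% of those with it at day 50 only and 53.7% of those without it at either age. At gene ends the same 4 shares were 5.86%, 6.56%, 7.19% and 6.77%. Inside-gene peaks without H3K4me1 were narrower, with a median of 196 against 298 bases for those with it at both ages.

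The chromosomes differed modestly. The lost share ran from 20.8% on X (1006 of 4837) to 27.8% on 2L (1342 of 4822) and, with 133 peaks only, 27.8% on 4. The gained share ran from 18.3% on 3L to 22.0% on X and 26.5% on 4 (35 of 132, interval 19.2 to 34.9). X was the only one of the long sequences on which the gained share was above the lost share.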

How the data were processed

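ChIP of H3K27ac in male heads was summarised by the authors as 1 narrowPeak list per age, and per the peak names in the files both replicates were pooled and peaks were called with a nomodel setting. Per the submitters' processing notes the build was BDGP6, and the tools listed there, with no role or order, are MACS2 2.1.1, STAR 2.5.3a, deepTools, Trim Galore and FastQC. The lists as deposited give each peak's fold ratio over background, its -log10 q value, a score that is 10 times the -log10 q cut to a whole number (within 1), and a summit offset in bases. Every peak had a -log10 q of at least 1.30. Nuclease digestion of the chromatin, per the labels' protocols, can favour accessible chromatin, and a q threshold admits more peaks in a deeper library. Peaks were ranked and filtered by fold only within a list. Where folds of both ages are printed side by side, they are each list's own values, and no change between ages is read from them.

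Overlaps were computed in Python 3.11.15 with numpy 2.4.6, pandas 2.3.3 and scipy 1.17.1, and the overlap code was tested on simulated lists. Positions of 13922 protein-coding genes came from a RefSeq table of Release 6, the assembly that BDGP6 names. A peak was at a gene end within 500 bases of one, and gene regions had 1000 bases on both sides. For gene lengths and nearest genes, a peak inside several genes was assigned to the one whose end was nearest to the summit. In counts per gene it counted for each gene region that it overlapped. Named genes were the 8 with the largest net loss and gain (ties broken by summed fold), the 6 strongest lost and gained peaks overall and at gene ends, the 4 longest runs, the 4 top splits, merges, shifts and width changes, and leading list members. Members, lists and rules were chosen with earlier results of these data known. Alternatives were stricter q, equal numbers of peaks, joined peaks, other overlaps and windows. Motif and sequence descriptions were not made, since no sequence was used here.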

Additional observations from a re-analysis of the deposited data

Results flagged for a closer look

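Outside 2L, 2R, 3L, 3R, 4 and X, the day 10 list held 7 H3K27ac peaks and the day 50 list 7 as well, on the Y chromosome and short unplaced sequences that the comparison did not use. They are listed because no comparison covers them. Of these, 2 at day 10 and 0 at day 50 were on Y, and the highest folds were 2.95 and 2.76.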

How the results depend on the processing

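Covered bases of the whole list, day 50 minus day 10, were -0.248 Mb but 0.249 Mb with -log10 q of at least 5 in both lists and 0.0358 Mb with equal numbers of peaks, so the direction of the total turned with the peaks admitted. The gain near gene ends (0.349 Mb) and the declines inside genes (-0.435 Mb) and outside genes (-0.162 Mb) kept their signs under all 5 alternatives. With -log10 q of at least 5 the declines were only -0.0722 and -0.0612 Mb, inside genes with equal numbers -0.219 Mb, and with windows of 250 bases at gene ends 0.149 Mb near them and -0.242 Mb inside genes. The alternatives by position, and those for gene lists below, were chosen after seeing the data. Lost peaks numbered 4237 with -log10 q of at least 5 in both lists, 4067 with no day 50 peak within 500 bases and 2664 with that q in the own list alone; gained peaks numbered 4752, 2871 and 2702 in the same 3 settings, so that gains outnumbered losses in the first and the third. The strict q in both lists gave 605 split, 514 merged, 903 narrowed and 1181 widened peaks, and joining peaks across gaps no longer than the narrowest peak gave 514 merged peaks and 2375 summit shifts. With a limit of 300 bases 311 summits had shifted. Genes with more gains numbered 2001 with the 500-base rule, and genes with more losses 898 with strict q in the own list. The net changes of the 16 named genes kept their sign in all 112 recomputations, and 34 moved by over 1.5 times, most under the stricter q. With it in the own list alone, the net gain was 1 at Egfr and Dlic and 2 at e(y)3, and the net change at Pvf3 was -7. Of 154 recomputed list differences, percent gained minus percent lost, 8 turned: photoreceptor markers (2.66 with the 500-base rule), testis and germline markers (1.80) and synaptic vesicle genes (0.525) with strict q in both lists, neuronal transcription factors (-0.452 with gene bodies), and the circadian clock in 4 settings (-2.21, -2.24, -2.25 and -0.498). The cause was not tested. No paired analysis was possible because each age has 1 pooled list, and for the same reason no replicate could be left out.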
